A study of Mus musculus with 48 samples.

Results

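The CD45+CD4-CD8- cells of the tumor-draining lymph node (TDLN) of WT mice were compared with the CD4+ T cells and the CD8+ T cells of the same organ. They were the 4 libraries labelled WT CD45 TDLNs, set against 4 WT CD4 TDLNs and 4 WT CD8 TDLNs libraries, so that 12 of the 48 libraries of the study entered the comparison. A gene was taken as specific to the CD45+CD4-CD8- cells when it differed in the same direction from both T-cell groups. The mice were C57BL/6J animals of 6 to 10 weeks that had received B16F10 melanoma cells under the skin of the right flank, and the node was the inguinal node draining the tumor. WT animals had no Cre deletion of Yap. Yap-cKO animals, whose libraries served below to repeat the comparison, had loxP-flanked Yap removed by Cre under the Cd4 promoter, which acts in T cells and their thymic precursors, and littermates were the controls. The cross of the study also carried a Cre-dependent EYFP reporter. Dissociated nodes were stained, and live cells of each gate went straight into TRIzol LS. By its label the CD45+CD4-CD8- gate is defined by what it leaves out, so it could hold any leukocyte without CD4 or CD8 on its surface, B cells included. The paper's stain of tumor cells also held CD3, and its use for this gate is not stated.

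B cells carry an antigen receptor made of a membrane immunoglobulin and the signaling pair CD79A and CD79B. A coreceptor complex that includes CR2 and CD81 lowers its threshold, and CD22 and CD72 restrain it. B cells also take up antigen through this receptor and show it to CD4+ T cells on MHC class II molecules, as dendritic cells and macrophages do. T cells read peptides on MHC molecules through the T-cell receptor and the CD3 chains, with LCK, ZAP70 and LAT passing the signal on. Resting lymph nodes hold mostly T cells and follicular B cells, with small numbers of dendritic cells, macrophages, NK cells and innate-like lymphocytes.

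The 12 WT TDLN libraries held from 15918058 to 24213689 counts on genes, so 3 counts corresponded to between 0.124 and 0.188 CPM, a count scaled by library size, and lower values could not be told apart from 0. Unless stated otherwise, CPM were scaled by edgeR's TMM method. They are given by replicate number in the order 1 to 4 or as mean ± SD (n = 4 libraries). Log2 fold changes are CD45+CD4-CD8- over T cells, given ± SE. Some libraries stood apart. Genes with transcripts over 4000 bases were raised against those under 1000 bases by 0.39 log2 units in CD45+CD4-CD8- replicate 2, 0.38 in CD4+ replicate 4 and 0.47 in CD8+ replicate 4, relative to the mean of each group. Other libraries moved the other way, with −0.39 in CD45+CD4-CD8- replicate 1, −0.38 in CD4+ replicate 2 and −0.26 and −0.31 in CD8+ replicates 2 and 3. CD45+CD4-CD8- replicate 4 was at −0.090. The summed level of 4 genes of the Y chromosome (Uty, Kdm5d, Ddx3y and Eif2s3y) was 8.42, 7.34 and 8.44 CPM in the 3 libraries numbered 4 and between 67.5 and 401 CPM in the other 9. The counts over all genes and over the gene lists were therefore also obtained without the 3 libraries numbered 4. Of the 37 lists, 15 kept both counts in that fit and 14 moved by over 1.5 times in a count, and these are given beside the list. A gene then needed 10 counts in 4 of 9 libraries, of which 3 were CD45+CD4-CD8-, so fewer genes that T cells lack were tested. Nothing in the labels says that replicates came from separate animals, so the p-values measure the spread between these libraries, part of which may be technical.

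Cd79a, which encodes one chain of the B-cell receptor signaling pair (ENSMUSG00000003379.7, chr7:24897381-24902197 on the plus strand of GRCm38), stood at 4184, 2230.1, 3396 and 3706 CPM in the CD45+CD4-CD8- libraries, 12.3, 10.2, 31.5 and 7.505 in the CD4+ libraries and 25.2, 29.7, 40.9 and 11.9 in the CD8+ libraries. Each of the 4 CD45+CD4-CD8- libraries lay above each of the 8 T-cell libraries, by log2 fold changes of 7.78 ± 0.60 against CD4+ T cells (adjusted p = 4.2e-07) and 6.97 ± 0.58 against CD8+ T cells (adjusted p = 8.86e-07). Cd3e, the CD3 epsilon chain (ENSMUSG00000032093.7, chr9:44998740-45009627 on the minus strand), ran the other way. It stood at 9.92, 3.32, 12.3 and 11.97 CPM in the CD45+CD4-CD8- libraries, 1033, 1319, 1059 and 759 in the CD4+ libraries and 1226, 1401, 1517 and 839.9 in the CD8+ libraries, and the groups again did not overlap. The log2 fold changes were −6.80 ± 0.45 against CD4+ T cells (adjusted p = 1.22e-07) and −7.05 ± 0.46 against CD8+ T cells (adjusted p = 1.13e-07). Without CD4+ replicate 3 the fold change on the log2 scale came to 8.39 for Cd79a against CD4+ cells.

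Other markers of the gate gave the following levels, in the order CD45+CD4-CD8-, CD4+ and CD8+ cells. Cd4 was at 12.4, 763 and 2.01 CPM, Cd8a at 6.35, 4.34 and 942 CPM and Cd8b1, the other CD8 chain, at 12.4, 33.1 and 1477 CPM. The gate therefore held little RNA of either T-cell coreceptor. Ptprc, the gene for CD45 itself, was at 241, 1375, 424 and 363 CPM in the CD45+CD4-CD8- libraries, 711, 501, 469 and 2129 in the CD4+ libraries and 346, 382, 255 and 2310.2 in the CD8+ libraries, and the groups overlapped. Its long transcript was high in the 3 libraries in which long genes were raised most, and the difference was not called (−0.66 and −0.45, adjusted p = 0.601 and 0.747). Genes of cells that the gate should lack were low but not absent. The summed erythroid and platelet list was at 14.9, 4.28, 9.495 and 101 CPM in the CD45+CD4-CD8- libraries and 0.642 to 1.96 and 0.641 to 2.71 in the CD4+ and CD8+ libraries, the stromal and endothelial list at 6.05, 4.85, 5.62 and 17.2 CPM beside 1.70 to 3.31 and 1.34 to 2.50, and the melanoma list at 23.5, 19.96, 10.3 and 28.4 CPM beside 12.9 to 16.1 and 8.68 to 11.5. Of their defining markers, Hba-a1, Alas2, Col1a1 and Mlana averaged under 1 CPM in the CD45+CD4-CD8- libraries, but other markers were higher. The melanoma gene Tyrp1 ranged from 1.35 to 5.82 CPM there and was at most 0.291 CPM in any T-cell library. The endothelial gene Cdh5 ranged from 0.917 to 2.78 CPM beside at most 0.0986. The melanoma gene Pmel averaged 4.43 CPM beside 4.67 and 2.93 in CD4+ and CD8+ cells. The stromal gene Pdpn was at 10.953 CPM in replicate 4 and at most 0.131 in replicates 1 to 3. The platelet genes Pf4 and Ppbp reached 60.5 and 27.0 CPM in CD45+CD4-CD8- replicate 4 and were at most 0.545 CPM in the other 3.

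**Figure D1:**
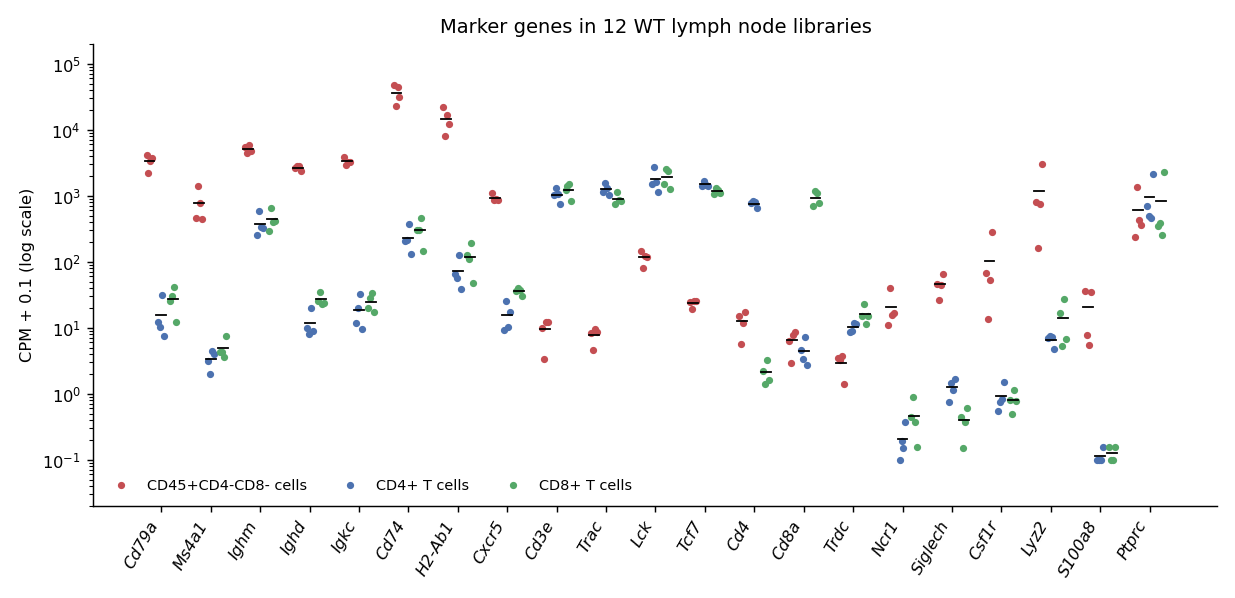
CPM, on a logarithmic axis with a small constant added, of 21 marker genes in each of the 12 WT TDLN libraries, with points for libraries and a black bar for each group mean. Cd79a, Ighd and the class II genes lie 2 to 3 powers of 10 higher in the CD45+CD4-CD8- cells (red), Cd3e and Trac lie lower there than in CD4+ (blue) and CD8+ (green) T cells, and Ptprc overlaps.

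Of 13992 genes with enough counts, 1829 (13.1%) were higher and 1550 (11.1%) lower in CD45+CD4-CD8- cells than in CD4+ T cells, and 1836 (13.1%) were higher and 1573 (11.2%) lower than in CD8+ T cells. The calls are at an adjusted p under 0.05 in edgeR's quasi-likelihood test and an absolute log2 fold change above 1. The genes that differed in the same direction from both T-cell groups numbered 1530 higher (10.9%) and 1166 lower (8.33%), and 30 genes went in opposite directions. The shares of 10.9% and 8.33% are the background for the list counts below. Without the 3 libraries numbered 4 the specific genes were 1116 higher and 1139 lower. In 1416 of the 1530 every CD45+CD4-CD8- library lay above every T-cell library, and in 1048 of the 1166 every one lay below, which the choice of these genes favors. Over all 13992 tested genes the same held for 1715 (12.3%) and 1420 (10.1%). Differences of more than 5 log2 units against both groups were seen for 472 genes that were higher and 204 that were lower. Protein-coding genes made up 1273 of the higher and 977 of the lower genes. The remainder was mostly antigen-receptor segments: all 218 tested immunoglobulin segments were higher and 166 of 171 tested T-cell receptor segments were lower. The count filter, 10 counts in 4 of the 12 libraries, favors this outcome. Segments could pass it through the libraries where they were high alone. The same holds for other genes that T cells lack, which favors the counts of higher genes in the lists below. These segments are families of similar sequence, so counts of single members are uncertain. In sorted populations, fewer cells of a type and less RNA per cell cannot be told apart.

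**Figure D2:**
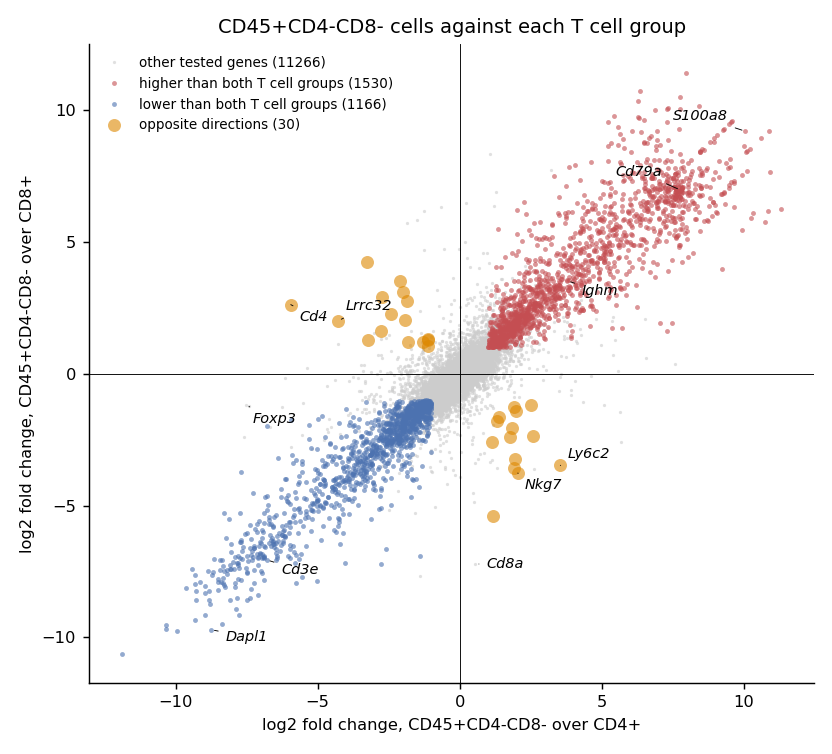
Log2 fold change of every tested gene in CD45+CD4-CD8- cells over CD4+ T cells (x axis) and over CD8+ T cells (y axis). The 1530 genes higher than both groups (red) and the 1166 lower than both (blue) lie along the diagonal, and the 30 genes with opposite directions (orange), among them Cd4, Ly6c2 and Nkg7, lie off it.

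Genes of the B-cell receptor and its coreceptors were higher with few exceptions: 13 of 15 were higher than in both T-cell groups, with median log2 fold changes of 5.75 and 6.20 against CD4+ and CD8+ cells, beside −0.01 and −0.02 over all tested genes, of which 10.9% were higher. All 15 passed the count filter. Cd79b, the partner of Cd79a, was at 1647, 1113, 1533 and 1813 CPM in the CD45+CD4-CD8- libraries, 5.41, 6.79, 14.3 and 6.15 in the CD4+ libraries and 15.6, 42.0, 30.5 and 23.6 in the CD8+ libraries. The groups did not overlap, and CD4+ replicate 3 was the highest of the CD4+ libraries for Cd79b as for Cd79a. The log2 fold changes of Cd79b were 7.55 ± 0.46 against CD4+ T cells (adjusted p = 6.65e-08) and 5.77 ± 0.43 against CD8+ T cells (adjusted p = 3.33e-07).

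Cr2, a complement receptor of the coreceptor complex, was at 166, 722, 269 and 292 CPM in the CD45+CD4-CD8- libraries and averaged 1.95 and 2.27 CPM in the T cells. Replicate 2, in which long transcripts were raised, was the highest of the 4 for Cr2. Cd81, a tetraspanin of the same complex also found on T cells, was called higher at smaller and unequal log2 fold changes of 2.03 and 5.30, where CD4+ cells held 71.6 CPM and CD8+ cells 7.43. The inhibitory receptors Cd22 (7.28 and 6.55), Siglecg (8.46 and 6.76), Fcgr2b (6.35 and 6.47) and Cd72 (4.16 and 2.67) were all higher than in both groups. Cd83, a surface molecule of activated B cells and dendritic cells, averaged 4035 ± 967 CPM against 176 and 54.9. The exceptions were Cd5 and Pecam1. Cd5, a negative regulator found on T cells and on B1 cells, was lower, with 5.06, 528 and 265 CPM in the order used above and log2 fold changes of −6.70 and −5.71. Pecam1 was called above CD8+ cells alone (1.27, adjusted p = 7.84e-04), while its value against CD4+ cells was 0.51 (adjusted p = 0.121).

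Among 18 genes of B-cell receptor signaling, 14 were higher than in both T-cell groups and none was called lower, with median log2 fold changes of 6.45 and 5.41. The kinases come first in this chain. Syk, which binds the phosphorylated CD79 chains, averaged 898 ± 247 CPM against 4.08 and 7.93. Btk, the kinase that activates phospholipase C-gamma-2, was at 167, 248, 201 and 179 CPM against 2.32 and 1.14 in T cells, and Lyn and Blk, kinases of the Src family, had log2 fold changes of 7.05 and 7.01 and of 6.48 and 5.09. The adaptor Blnk, which brings BTK and PLCG2 together, was at 404, 393, 438 and 366 CPM in the CD45+CD4-CD8- libraries, 1.71, 1.24, 5.04 and 2.01 in the CD4+ libraries and 2.85, 2.61, 4.45 and 2.16 in the CD8+ libraries. Its groups did not overlap, and the log2 fold changes were 7.32 ± 0.46 against CD4+ T cells (adjusted p = 8.19e-08) and 7.05 ± 0.46 against CD8+ T cells (adjusted p = 1.13e-07). Plcg2 itself (7.81 and 5.93) and the adaptor Pik3ap1 (7.13 and 5.72) were called higher as well. Omitting CD4+ replicate 3 gave a log2 fold change of 7.92 for Blnk against CD4+ cells.

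Other genes of this list gave smaller values. Grap, an adaptor, was at 366, 307 and 276 CPM and was not called. Prkcb, the protein kinase C of the B-cell pathway, was called higher by 1.94 ± 0.30 and 1.77 ± 0.30 log2 units, with 112 and 126 CPM in the T cells. Ptpn6 and Inpp5d, phosphatases that damp the signal in both lineages, were called higher by 1.89 and 1.42 and by 1.40 and 1.23.

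The octamer, the element bound by the OCT factors and their B-cell coactivator OBF1 (Pou2af1), was searched on both strands as ATGCAAAT in windows from 250 bases before to 50 after the start in RefSeq (GRCm38.p6). It was present in 33 of 1243 windows of specific higher genes (2.65%) and 8 of 984 windows of specific lower genes (0.813%), beside 1.32% of the 12880 windows of tested genes and 1.74% of all 32851 windows. It stood in 0 of 27 windows of the specific higher genes of the receptor, coreceptor and transcription factor lists. Windows were found for 971 of the 1530 higher genes and 757 of the 1166 lower genes. Most windows of either set lacked these letters. Other elements were searched in the same way on both strands: the EBF palindrome CCCNNGGG stood in 19.8% of windows of specific higher genes, 21.4% of those of lower genes, 17.4% of those of tested genes and 13.7% of all. In the same order, the Ets and PU.1 letters GAGGAAGT stood in 5.07%, 3.35%, 3.29% and 3.20%, the RUNX letters TGTGGTT in 3.94%, 4.07%, 3.90% and 5.27%, and the TCF/LEF letters CTTTGAT in 2.41%, 2.74%, 2.65% and 3.73%. 4 of the genes that hold the octamer are shown because their transcripts are described here, as the 140 bases before the start, with the octamer in capitals (ATTTGCAT is its reverse complement). They are Blnk (chr19:40994222-40994361, minus strand), Prkcb (chr7:122288985-122289124, plus strand), the chemokine receptor gene Ccr6 (chr17:8235903-8236042, plus strand, the first of its 2 windows) and Tlr9 (chr9:106222458-106222597, plus strand).
Blnk: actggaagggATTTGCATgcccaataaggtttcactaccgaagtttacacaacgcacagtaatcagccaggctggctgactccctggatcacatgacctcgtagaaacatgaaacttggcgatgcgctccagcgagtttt
Prkcb: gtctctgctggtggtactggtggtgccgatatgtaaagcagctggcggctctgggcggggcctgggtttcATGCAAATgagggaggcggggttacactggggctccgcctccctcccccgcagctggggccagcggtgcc
Ccr6: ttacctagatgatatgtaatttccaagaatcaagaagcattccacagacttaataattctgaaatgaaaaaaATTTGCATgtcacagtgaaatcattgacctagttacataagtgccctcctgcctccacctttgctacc
Tlr9: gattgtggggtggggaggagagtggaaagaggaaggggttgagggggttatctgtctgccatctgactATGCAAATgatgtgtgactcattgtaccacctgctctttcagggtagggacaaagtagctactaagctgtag
The match lay 130 to 123 bases before the start in Blnk and between 72 and 61 bases before it in the other 3.

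Immunoglobulin constant genes were higher in CD45+CD4-CD8- cells in every tested case: 7 of 7 heavy and 4 of 4 light constant genes were called against both T-cell groups. Constant genes that T cells lack could pass the count filter through the CD45+CD4-CD8- libraries alone, which favors these counts. Ighe did not pass the count filter, at 0.701 CPM. Ighm, the constant gene of IgM, was at 5578, 4435, 5806 and 4761 CPM in the CD45+CD4-CD8- libraries, 257, 584, 332 and 327 in the CD4+ libraries and 298, 664, 406 and 410.4 in the CD8+ libraries. Its groups did not overlap, with log2 fold changes of 3.78 ± 0.34 against CD4+ T cells (adjusted p = 1.64e-06) and 3.53 ± 0.34 against CD8+ T cells (adjusted p = 2.85e-06). The T-cell libraries nevertheless held 7.29% (CD4+) and 8.64% (CD8+) of the Ighm level of the CD45+CD4-CD8- cells, while for Ighd, the constant gene of IgD next to it, they held 0.437% and 1.01%. Ighd was at 2601, 2808, 2874 and 2349.7 CPM in the CD45+CD4-CD8- libraries. Igkc, the kappa light chain constant gene, averaged 3342 ± 407 CPM against 18.4 and 24.8.

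Per length, in TPM, Ighm made up 65.9% ± 2.87 of the heavy constant genes of the CD45+CD4-CD8- libraries and Ighd 32.2% ± 3.34 (SD, n = 4). The switched isotypes added up to 3.70%, 1.36%, 1.72% and 0.901% in replicates 1 to 4. They differed in kind between libraries. Ighg1, the IgG1 gene, gave 3.44% in replicate 1 and between 0.112% and 0.153% in the other 3. Ighg2c gave 1.12% in replicate 3 and Ighg3 0.758% in replicate 2, each the highest of its 4 libraries. A call for Ighg1 against CD8+ cells (5.8 ± 1.46, adjusted p = 0.00796) was lost without replicate 1 (3.26, adjusted p = 0.0540). Kappa made up 74.7% ± 4.31 of the light constant genes and lambda 25.3% ± 4.31, of which Iglc2 was 12.2%. The variable segments were spread widely. Ighv9-3 led the 113 Ighv segments with 5.29% ± 0.353 of their TPM and Igkv6-15 led the 100 Igkv segments with 5.48% ± 0.423. The 5 leading segments together held 19.2% of the Ighv and 22.5% of the Igkv level. Igkv1-117 lay between 4.80% and 5.04% in the 4 libraries and Ighv1-26 between 2.85% and 2.98%, the smallest spreads among the leading segments. Others were wider, such as Ighv3-6 between 3.29% and 4.43% and Igkv19-93 between 3.72% and 4.86%. In proportion to their level the leading segments still varied less between libraries than the switched isotypes. When CD8+ replicate 1 was left out, the log2 value became 8.27 for Ighg1 against CD8+ cells.

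Of 19 transcription factors of the B lineage, 13 were higher than in both T-cell groups and none was lower, with median log2 fold changes of 4.13 and 4.16. Pax5, which sets and keeps B-cell identity, was at 34.1, 101, 55.5 and 78.1 CPM in the CD45+CD4-CD8- libraries, 0.276, 0.0459, 0.477 and 0.218 in the CD4+ libraries and 0.816, 0.690, 0.348 and 0.4996 in the CD8+ libraries. The groups did not overlap, with log2 fold changes of 8.03 ± 0.57 against CD4+ T cells (adjusted p = 2.19e-07) and 6.80 ± 0.53 against CD8+ T cells (adjusted p = 5.37e-07). Ebf1, an early B-lineage factor, averaged 196 ± 68.7 CPM against 0.999 and 1.80. Spib and Spi1, the Ets factors of B and myeloid cells, had log2 fold changes of 7.51 and 6.41 and of 7.62 and 6.75, Mef2c of 7.62 and 7.43 and Bcl11a of 7.35 and 6.72. Pou2af1, the OBF1 coactivator, was at 410.4, 12.01 and 18.1 CPM, and its DNA-binding partner Pou2f2 at 54.5, 5.88 and 8.02 CPM. Some factors that also work in T cells were not called against both groups: Foxo1 was at 390.5, 477 and 324 CPM, Klf2 at 859.6, 517 and 574 CPM and Tcf3 at 251, 145 and 164 CPM. Others were called higher although T-cell libraries held more of them than of Pax5. CD4+ and CD8+ libraries held 23.1% and 16.3% of the CD45+CD4-CD8- level of Irf4 and 21.6% and 21.5% of that of Ikzf3. Bach2 was called above CD8+ cells (1.16) and not above CD4+ cells (0.70, adjusted p = 0.0267). The call of Bach2 against CD8+ T cells was lost in DESeq2 with transcript length offsets (0.63, adjusted p = 0.120) and in edgeR with transcript length offsets (0.59, adjusted p = 0.153). Without CD4+ replicate 4 the fold change on the log2 scale came to 7.94 for Bcl11a against CD4+ cells.

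Among 20 B-cell surface molecules, 15 were higher than in both groups. Ms4a1, the gene for CD20, was at 465, 1408, 765 and 445 CPM in the CD45+CD4-CD8- libraries, with replicate 2 the highest, and averaged 3.32 and 4.86 in the T cells. Fcer2a, the gene for CD23 of follicular B cells, averaged 1147 ± 77.3 CPM with log2 fold changes of 7.62 and 7.02. Fcmr, the IgM Fc receptor, averaged 1852 ± 382 CPM (7.79 and 6.99). Ly6d had log2 fold changes of 7.81 and 7.07 and Cd180, a Toll-like receptor relative on B cells, of 8.47 and 7.54. Cd53 and Il4ra, which T cells also carry, were not called. Cd1d1 was called below CD4+ cells (−1.13, adjusted p = 8.78e-04) and not against CD8+ cells (−0.45). Omitting CD4+ replicate 3 gave log2 fold changes of 8.25 for Fcer2a against CD4+ cells, 8.46 for Fcmr against CD4+ cells and 8.39 for Ly6d against CD4+ cells.

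Lists of later B-cell stages were called in part. 6 of 11 tested germinal center genes were higher than in both T-cell groups (54.5%) and 1 was lower (9.09%), beside 10.9% and 8.33% of all tested genes. Without the 3 libraries numbered 4, 2 of 7 were higher and 0 lower. Bcl6, the germinal center repressor that follicular helper T cells also use, was at 91.8, 65.1 and 32.7 CPM and was called against CD8+ cells alone. Fas, a death receptor, was the gene that was lower (−2.05 and −1.55). In the plasma cell list 5 of 9 tested genes (55.6%) were higher and none lower. Mzb1, an endoplasmic reticulum protein of B and plasma cells, averaged 188 ± 56.6 CPM (7.64 and 6.60), Sdc1, the gene for CD138, 95.7 ± 53.9 CPM (4.72 and 4.2) and Jchain, the joining chain of IgM and IgA, 21.2 ± 5.28 CPM (5.65 and 5.56). Xbp1, a secretory factor, was at 238, 254 and 172 CPM and was not called. Tnfrsf17, the BCMA receptor of plasma cells, did not pass the count filter, at 0.0545 CPM. In the list of marginal zone and B1 genes 5 of 10 were higher than in both groups (3 of 8 without the libraries numbered 4). S1pr3, a marginal zone sphingosine receptor, had log2 fold changes of 6.75 and 7.59, while Cd9 was called below CD4+ cells (−1.44). The call of Fas against CD8+ T cells was lost without the 3 libraries numbered 4 (−1.03, adjusted p = 0.0514). When CD4+ replicate 3 was left out, the log2 value became 8.24 for Mzb1 against CD4+ cells.

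MHC class II presentation held the highest levels among protein-coding genes that were higher. Per length, Cd74 (the invariant chain), H2-Ab1, H2-Aa and H2-Eb1 were the leading protein-coding specific genes, at 44519, 18217, 13568 and 8443 TPM on average. 13 of 15 list members were higher than in both T-cell groups and 1 was lower, with median log2 fold changes of 7.08 and 6.74. H2-Ab1, the beta chain of I-A, was at 22003, 7940.3, 17040.0 and 12052 CPM in the CD45+CD4-CD8- libraries, 65.9, 56.7, 128 and 39.2 in the CD4+ libraries and 125, 112, 193 and 47.6 in the CD8+ libraries. The groups did not overlap, although replicate 2 held less than the other 3 CD45+CD4-CD8- libraries, and the log2 fold changes were 7.67 ± 0.62 against CD4+ T cells (adjusted p = 7.03e-07) and 6.95 ± 0.60 against CD8+ T cells (adjusted p = 1.35e-06). Ciita, the transactivator without which class II genes stay silent, averaged 649 ± 198 CPM against 2.81 and 5.43 (7.85 and 6.90).

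The peptide-loading genes differed among themselves. H2-DMb2 and H2-DMb1, beta chains of the peptide exchange factor DM, had log2 fold changes of 7.63 and 6.84 and of 7.08 and 6.74. H2-DMa, the alpha chain, had 4.54 and 3.61, where T cells held 38.1 and 72.4 CPM of it. H2-Oa and H2-Ob, the chains of the DM inhibitor DO, had 5.21 and 3.44 and 4.65 and 4.21. Ctss, the protease that trims the invariant chain, was higher by 1.82 and 2.15. Of the RFX subunits that act with CIITA, Rfx5 was higher (1.53 and 1.71), Rfxank was not called and Rfxap was lower, at 26.0, 21.7, 23.4 and 21.0 CPM in the CD45+CD4-CD8- libraries, 53.4, 48.8, 59.6 and 32.5 in the CD4+ libraries and 47.4, 47.1, 59.7 and 31.6 in the CD8+ libraries. The Rfxap differences, −1.08 ± 0.24 against CD4+ T cells (adjusted p = 0.00374) and −1.01 ± 0.24 against CD8+ T cells (adjusted p = 0.00567), were close to the fold threshold. The call of Rfxap against CD4+ T cells was lost without CD4+ replicate 3 (log2 fold change −0.97). The call of Rfxap against CD8+ T cells was lost without CD45+CD4-CD8- replicates 2 or 4 or CD8+ replicates 1, 2 or 3 (log2 fold change −0.99 to −0.89), and also in DESeq2 (−0.98, adjusted p = 7.96e-04), with the replicate block (−0.98, adjusted p = 0.00303) and in a fit of the 8 libraries compared (−0.98, adjusted p = 0.0120).

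The class II Y box, the NF-Y element of these promoters, was searched on both strands as CTGATTGG in the same windows. It stood in 4 of 9 windows (8 class II genes, 44.4%), against 4.10% of all windows, 5.62% of those of tested genes, 3.46% of those of specific higher genes and 3.96% of those of specific lower genes. The 4 are shown, as the 120 bases before the start in RefSeq (GRCm38.p6), because the transcripts of all 4 genes were higher, with the Y box in capitals. They belong to H2-Aa (chr17:34287824-34287943, minus strand), H2-Eb1 (chr17:34305747-34305866, plus strand), H2-Oa (chr17:34092259-34092378, plus strand) and H2-Eb2 (chr17:34325555-34325674, plus strand).
H2-Aa: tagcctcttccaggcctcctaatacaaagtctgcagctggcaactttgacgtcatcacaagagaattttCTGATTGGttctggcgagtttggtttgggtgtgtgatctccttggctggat
H2-Eb1: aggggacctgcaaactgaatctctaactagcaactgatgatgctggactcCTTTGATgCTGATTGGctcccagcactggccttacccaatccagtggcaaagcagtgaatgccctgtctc
H2-Oa: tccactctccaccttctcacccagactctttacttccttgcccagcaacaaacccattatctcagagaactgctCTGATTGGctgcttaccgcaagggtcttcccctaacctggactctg
H2-Eb2: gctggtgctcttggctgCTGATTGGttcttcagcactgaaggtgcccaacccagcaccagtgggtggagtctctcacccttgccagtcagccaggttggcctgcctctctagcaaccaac
The box lay 51 to 44 bases before the start in H2-Aa, 62 to 55 in H2-Eb1, 46 to 39 in H2-Oa and 103 to 96 in H2-Eb2. In H2-Eb1 a second motif is also in capitals, the TCF/LEF letters CTTTGAT just ahead of the box, which are in 2 of the 9 class II windows, 2.65% of windows of tested genes and 3.73% of all windows. The log2 fold changes of these genes were 7.59 and 6.90 for H2-Aa, 7.62 and 6.89 for H2-Eb1, 5.21 and 3.44 for H2-Oa and 7.84 and 7.08 for H2-Eb2. Without CD4+ replicate 3 the fold change on the log2 scale came to 9.23 for H2-Eb2 against CD4+ cells.

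MHC class I presentation is used by every nucleated cell. None of 12 members was higher and 1 was lower (8.33%, as in 8.33% of all tested genes), with median log2 fold changes of −0.30 and −0.33. Nlrc5, the class I transactivator, was the lower gene, at 44.4, 52.2, 65.6 and 50.5 CPM in the CD45+CD4-CD8- libraries, 154, 138, 138 and 193 in the CD4+ libraries and 257, 229, 241 and 276 in the CD8+ libraries. Every CD45+CD4-CD8- library lay below every T-cell library, with log2 fold changes of −1.55 ± 0.19 against CD4+ T cells (adjusted p = 2.22e-05) and −2.24 ± 0.19 against CD8+ T cells (adjusted p = 1.10e-06). B2m was at 1312, 1966 and 2238 CPM and H2-K1 at 3804, 5851 and 6778 CPM, neither called, although H2-K1 was called lower than in CD8+ cells without CD8+ replicate 4 (−1.04, adjusted p = 0.0233).

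T-cell receptor genes were lower throughout. All 7 members of the receptor complex were lower than in both T-cell groups, with median log2 fold changes of −6.55 and −6.65. Trac, the alpha constant gene, was at 8.17, 4.59, 9.32 and 8.55 CPM in the CD45+CD4-CD8- libraries, 1147, 1565, 1294 and 1029 in the CD4+ libraries and 758, 1152, 868.4 and 836 in the CD8+ libraries. The groups did not overlap, at log2 fold changes of −7.36 ± 0.33 against CD4+ T cells (adjusted p = 7.61e-09) and −6.88 ± 0.32 against CD8+ T cells (adjusted p = 1.25e-08). The CD45+CD4-CD8- cells held between 0.608% and 1.66% of the T-cell level of these 7 genes. Of 20 signaling genes 17 were lower, with medians of −4.92 and −4.61. Cd6, a T-cell surface regulator, was at 4.63, 1029.6 and 711 CPM (−7.80 and −7.26), and Themis, a signaling protein of developing and naive T cells, at 0.517, 82.6 and 93.8 CPM (−7.25 and −7.43). Lck, the kinase that starts the signal, kept a higher remainder, at 144, 80.0, 123 and 118 CPM, which was 6.58% of the CD4+ level and 6.05% of the CD8+ level, beside 0.9% and 0.753% for Cd3e. Its log2 fold changes were −3.93 ± 0.36 against CD4+ T cells (adjusted p = 1.90e-06) and −4.05 ± 0.36 against CD8+ T cells (adjusted p = 1.63e-06). Fyn (−2.31 and −2.02) and Grap2 (−1.69 and −1.99) also kept more, while Tespa1 was not called. Cd2, an adhesion molecule of T and NK cells, was called below CD4+ cells alone (−1.34, adjusted p = 6.43e-04), with −0.85 against CD8+ cells (adjusted p = 0.0143). Values that 1 library moved were, on the log2 scale, −6.59 for Themis against CD4+ cells without CD4+ replicate 4 and −6.07 for Themis against CD8+ cells without CD8+ replicate 4.

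Of 16 T-cell transcription factors 7 were lower than in both groups. Bcl11b, which guards T-cell identity, was at 3.42, 517 and 338 CPM (−7.23 and −6.62), Tcf7 at 23.7, 1488 and 1177 CPM (−5.97 and −5.63), and Lef1 had −5.42 and −5.21. Ets1 and Satb1 were not called, with Ets1 at 1716, 2117 and 1457 CPM. Foxp3, of regulatory T cells, was lower than in CD4+ cells (−7.53), with −1.18 against CD8+ cells (adjusted p = 0.118). Without CD45+CD4-CD8- replicate 3, its highest library, Foxp3 was also called against CD8+ cells (−2.15, adjusted p = 0.00244). Eomes, a factor of effector and NK cells, lay above CD4+ and below CD8+ cells (1.77 and −2.39). In the list of naive and memory T-cell genes 7 of 14 were lower (50%, beside 8.33% of all tested genes) and none higher than both groups. Dapl1, a gene of naive T cells, had the largest difference among genes that were lower, at 0.163, 0.0873, 0.0871 and 0.0633 CPM against means of 46.2 and 89.0 (−8.76 and −9.70). Als2cl (−7.76 and −7.37) and Slc16a5 (−7.51 and −7.35) followed, while Igfbp4, also of naive T cells, had −7.15 and −6.0. When CD45+CD4-CD8- replicate 3 was left out, the log2 value became −8.50 for Foxp3 against CD4+ cells.

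By its label the gate did not exclude γδ T cells or NK cells, but whether CD3 was also used to leave cells out is not stated. The genes of these cells went different ways. Of 13 γδ genes 5 were lower than in both T-cell groups (38.5%) and 1 was higher (7.69%), beside 8.33% and 10.9% of all tested genes. Without the 3 libraries numbered 4, 2 of 13 were lower. Trdc, the delta constant gene, was at 3.43, 3.10, 3.62 and 1.33 CPM in the CD45+CD4-CD8- libraries, 8.45, 8.85, 11.9 and 11.3 in the CD4+ libraries and 15.1, 23.1, 11.5 and 15.1 in the CD8+ libraries. The CD45+CD4-CD8- libraries were the lowest 4, at log2 fold changes of −1.81 ± 0.34 against CD4+ T cells (adjusted p = 9.36e-04) and −2.49 ± 0.34 against CD8+ T cells (adjusted p = 8.16e-05). Tcrg-C1 (−2.18 and −3.09) and Il17a (−2.97 and −3.20) were lower as well, and so was Cd163l1, a scavenger receptor of γδ cells (−1.73 and −4.67). The gene that was higher was Blk, which B cells also express. The call of Il17a against CD4+ T cells was lost without CD45+CD4-CD8- replicates 1, 2 or 4, CD4+ replicates 2, 3 or 4 or CD8+ replicates 1, 2 or 3 (adjusted p = 0.0516 to 0.113), and also in a fit of the 8 libraries compared (−2.96, adjusted p = 0.0635) and without the 3 libraries numbered 4 (−2.64, adjusted p = 0.0965). The call of Il17a against CD8+ T cells was lost without CD45+CD4-CD8- replicates 1, 2 or 4 or CD8+ replicates 2 or 3 (adjusted p = 0.0677 to 0.0744), and also without the 3 libraries numbered 4 (−2.93, adjusted p = 0.0582). The call of Cd163l1 against CD4+ T cells was lost without CD45+CD4-CD8- replicates 1, 2 or 4 or CD4+ replicate 2 (adjusted p = 0.0561 to 0.0835), and also without the 3 libraries numbered 4 (−1.39, adjusted p = 0.0557). Without CD45+CD4-CD8- replicate 3 the fold changes on the log2 scale came to −4.58 and −4.80 for Il17a.

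Of 18 NK and innate lymphoid genes 6 were higher than in both groups (33.3%) and 2 were lower (11.1%), beside 10.9% and 8.33% of all tested genes. With the libraries numbered 4 left out, 7 of 17 were higher and 0 lower. Ncr1, the gene for the NK receptor NKp46, was at 11.1, 40.5, 15.6 and 16.4 CPM in the CD45+CD4-CD8- libraries, 0, 0.0918, 0.0530 and 0.272 in the CD4+ libraries and 0.350, 0.789, 0.278 and 0.0555 in the CD8+ libraries. No T-cell library reached 1 CPM, and the log2 fold changes were 7.56 ± 0.84 against CD4+ T cells (adjusted p = 1.12e-05) and 5.78 ± 0.74 against CD8+ T cells (adjusted p = 4.38e-05). Gzma, a granzyme of NK and cytotoxic cells, averaged 61.3 ± 8.91 CPM (7.34 and 3.92), and Tyrobp and Fcer1g, signaling adaptors of NK and myeloid cells, had 6.94 and 6.38 and 6.56 and 5.01. Nkg7, Klrd1 and Xcl1 lay above CD4+ and below CD8+ cells. For Nkg7 the means were 66.0, 16.0 and 897 CPM. Il2rb, the interleukin-2 receptor beta chain, was below both, at −1.0 and −2.98, with an adjusted p of 0.0466 against CD4+ cells. The call of Il2rb against CD4+ T cells was lost without CD45+CD4-CD8- replicates 2, 3 or 4, CD4+ replicates 1, 2, 3 or 4 or CD8+ replicates 1, 2 or 3 (adjusted p = 0.0469 to 0.144, with a log2 fold change within 1 of 0 where p was under 0.05), and also in DESeq2 (−0.97, adjusted p = 0.0318), in DESeq2 with transcript length offsets (−0.97, adjusted p = 0.0283), without antigen-receptor segments (−0.99, adjusted p = 0.0518), in edgeR with transcript length offsets (−0.998, adjusted p = 0.0427) and without the 3 libraries numbered 4 (−0.84, adjusted p = 0.0702). Log2 fold changes that moved with 1 library were 9.06 for Gzma against CD4+ cells without CD4+ replicate 2, 8.52 for Ncr1 against CD4+ cells without CD4+ replicate 4, 6.31 and 5.75 for Tyrobp and 5.62 and 4.07 for Fcer1g without CD45+CD4-CD8- replicate 4 and 6.51 for Ncr1 against CD8+ cells and 4.68 for Gzma against CD8+ cells without CD8+ replicate 2.

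Dendritic and myeloid genes were higher as well. Of 13 tested conventional dendritic cell genes 9 were higher, with 3 more below the count filter. Flt3, the growth factor receptor of dendritic cells, was at 22.9, 15.3, 17.9 and 27.1 CPM in the CD45+CD4-CD8- libraries, 1.16, 0.872, 0.954 and 1.31 in the CD4+ libraries and 0.816, 0.296, 0.695 and 1.28 in the CD8+ libraries. The groups did not overlap (4.27 and 4.75, adjusted p = 2.61e-06 and 1.45e-06). Sirpa (6.47 and 7.67), Cd209a (3.52 and 4.54) and the chemokine gene Ccl22 (4.66 and 4.92) were higher, and Xcr1, a marker of cross-presenting dendritic cells, was not called (4.48, 2.72 and 3.59 CPM). Of 10 plasmacytoid genes 4 were higher (40.0%, beside 10.9% of all tested genes), and 2 of 8 without the libraries numbered 4. Siglech was at 45.2, 26.2, 45.1 and 66.0 CPM in the CD45+CD4-CD8- libraries and had log2 fold changes of 5.28 and 7.26. Values that 1 library moved were, on the log2 scale, 5.54 and 6.74 for Sirpa and 3.19 and 3.44 for Ccl22 without CD45+CD4-CD8- replicate 4, 8.50 for Sirpa against CD8+ cells without CD8+ replicate 3 and 5.84 for Ccl22 against CD8+ cells without CD8+ replicate 4.

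In the monocyte and macrophage list 9 of 15 tested genes were higher, 5 of 12 without the libraries numbered 4, and the 4 libraries were unequal. The summed list was at 1248, 608, 1162 and 4388 CPM in replicates 1 to 4. It ranged from 35.3 to 53.1 CPM in the CD4+ libraries. In the CD8+ libraries it ranged from 668 to 1444 CPM and so overlapped, with Ly6c2 alone averaging 1106 CPM there. Csf1r, the growth factor receptor of these cells, was at 68.4, 13.6, 52.8 and 281 CPM in the CD45+CD4-CD8- libraries, 0.442, 0.642, 0.742 and 1.41 in the CD4+ libraries and 0.699, 0.394, 1.04 and 0.666 in the CD8+ libraries. Replicate 4 stood highest and replicate 2 lowest, and even the lowest was above each T-cell library. Its log2 fold changes of 7.0 and 7.22 became 5.81 and 6.04 without replicate 4 and were still called. Lyz2, the lysozyme of myeloid cells, went from 7.5 and 6.41 to 6.49 and 5.42, and Cd14, the lipopolysaccharide coreceptor, from 9.49 and 8.15 to 7.94 and 6.60, all called. The neutrophil list had 5 of 7 tested genes higher and 6 below the count filter, and 1 of 3 without the libraries numbered 4. S100a8, a calgranulin, was at 35.6, 7.73, 5.31 and 34.7 CPM, with 1500 counts in the 4 libraries against 1 in the CD4+ and 2 in the CD8+ libraries. The ratios of CPM were 1447 (95% counting interval 259 to 57175) and 655 (181 to 5412), where the intervals cover counting error only. Ly6g, the surface marker of neutrophils, was at 0.113 CPM and did not pass the filter. Of 10 mast cell, 10 erythroid and platelet and 14 stromal genes 2 each passed the filter, and 1, 1 and 2 of them were higher. Of 8 melanoma genes 6 passed and 1 was higher. Without the libraries numbered 4 no stromal gene passed the filter, and 1 of 1, 0 of 1 and 0 of 4 genes of the other lists were higher. Genes that T cells lack could pass the filter through the CD45+CD4-CD8- libraries alone, which favors the counts of higher genes in this paragraph. Without CD4+ replicate 4 the fold change on the log2 scale came to 10.20 for Cd14 against CD4+ cells.

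Costimulation genes went both ways, and in some pairs the receptor and the ligand lay on different sides. Of 18 tested genes 4 were higher (22.2%) and 8 lower (44.4%), beside 10.9% and 8.33% of all tested genes. Cd40, the receptor through which T cells help B cells, was at 218, 187, 135 and 278 CPM in the CD45+CD4-CD8- libraries, 2.93, 2.43, 1.33 and 1.74 in the CD4+ libraries and 1.57, 3.89, 2.29 and 2.50 in the CD8+ libraries. Its ligand Cd40lg was at 0.658, 113 and 1.53 CPM and was called lower than in CD4+ cells (−7.41 ± 0.55, adjusted p = 3.00e-07). Against CD8+ cells it was not called, but it was with the replicate block (−1.13, adjusted p = 0.0426), in both DESeq2 fits and without CD8+ replicate 3 (−1.51, adjusted p = 0.0213). Icosl was higher (5.23 and 4.84) and its receptor Icos lower (−5.76 and −4.73). Cd86, a ligand of CD28, was higher (2.95 and 2.78), while Cd28 and Ctla4, the receptors that compete for it, were lower (−6.53 and −5.42 and −5.54 and −3.43). Cd80, the other ligand, was at 2.40, 1.84 and 0.826 CPM and was not called. It was called higher than in CD8+ cells in DESeq2 (1.55, adjusted p = 0.0217), with transcript length offsets in DESeq2 and edgeR (2.06 and 2.03), with the replicate block (1.54, adjusted p = 0.0358) and without CD8+ replicate 1 (1.89, adjusted p = 0.0391). Omitting CD45+CD4-CD8- replicate 3 gave log2 fold changes of 2.36 and 2.18 for Cd86.

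Among 20 cytokine receptors 1 was higher (5%) and 7 were lower (35%), beside 10.9% and 8.33% of all tested genes, and 4 of 20 were lower without the libraries numbered 4. The higher gene was Il10ra, the interleukin-10 receptor alpha chain, at 598, 348, 618 and 541 CPM in the CD45+CD4-CD8- libraries, 46.0, 47.4, 47.5 and 30.3 in the CD4+ libraries and 10.6, 26.6, 16.8 and 23.6 in the CD8+ libraries, with log2 fold changes of 3.62 ± 0.32 against CD4+ T cells (adjusted p = 1.36e-06) and 4.76 ± 0.34 against CD8+ T cells (adjusted p = 2.26e-07). Il7r, the survival receptor of resting T cells, was lower (−4.04 and −4.10), as were Il6st (−2.44 and −2.21) and Il27ra (−1.98 and −2.24). Il2rg, the shared gamma chain, was not called (1089, 1293 and 1260.0 CPM). In the BAFF and APRIL system 4 of 9 tested genes (44.4%) were higher and none lower. Tnfrsf13c, the BAFF receptor needed for B-cell survival, averaged 191 ± 47.4 CPM against 2.32 and 3.79, while Tnfsf13b, the gene for BAFF itself, was below the filter at 0.288 CPM. When CD8+ replicate 4 was left out, the log2 value became −3.06 for Il7r against CD8+ cells.

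Homing genes went both ways. Ccr7, the receptor for entry into the T zone, was at 4401, 4999 and 5462 CPM and was not called. Cxcr5, the receptor for the B-cell follicle, was at 1089, 879, 890.0 and 872 CPM in the CD45+CD4-CD8- libraries, 9.003, 25, 10.02 and 17.2 in the CD4+ libraries and 36.1, 40.0, 37.8 and 30.4 in the CD8+ libraries. The CD45+CD4-CD8- libraries were far above the others, by 5.93 ± 0.35 against CD4+ T cells (adjusted p = 4.97e-08) and 4.69 ± 0.33 against CD8+ T cells (adjusted p = 2.26e-07). Ccr6 (2.89 and 5.13), Cnr2, a cannabinoid receptor of B cells (3.79 and 2.32) and Cxcr4 (1.53 and 1.12) were higher too, which with Cxcr5 and S1pr3 made 5 of 20 (25%). The integrins Itgb7 (−1.34 and −1.42), Itgal (−1.01 and −1.13) and Itgae (−2.97 and −4.39) and the chemokine receptor Cxcr3 (−1.65 and −4.03) were lower, 20% of the list beside 8.33% of all tested genes. The call of Itgal against CD4+ T cells was lost without CD45+CD4-CD8- replicate 2 or CD4+ replicate 2 (log2 fold change −0.89 to −0.85), and also in DESeq2 (−0.98, adjusted p = 1.29e-04) and with the replicate block (−0.997, adjusted p = 0.00916). The call of Itgal against CD8+ T cells was lost without CD45+CD4-CD8- replicate 2 (log2 fold change −0.98).

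The Toll-like receptor system had 10 of 17 tested genes higher (58.8%, beside 10.9% of all tested genes) and none lower than both groups. Unc93b1, the chaperone that brings nucleic acid receptors to endosomes, averaged 1100.3 ± 208 CPM against 12.02 and 18.8 (6.51 and 5.87). Tlr9, the receptor for unmethylated DNA, was at 7.63, 5.42, 5.79 and 9.88 CPM, with 553 counts against 2 in the CD4+ libraries, a ratio of 267 (95% counting interval 73.5 to 2207). Myd88, the adaptor common to most of these receptors, was not called (102, 115 and 156 CPM). Among Fc receptors 10 of 11 tested genes were higher, and in the complement list 9 of 13 (5 of 12 without the libraries numbered 4). The count filter favors the counts of these lists too, since genes that T cells lack could pass it through the CD45+CD4-CD8- libraries alone. C5ar1, the receptor for the anaphylatoxin C5a, had 12.04, 1.09, 6.05 and 78.0 CPM in the CD45+CD4-CD8- libraries, and at most 0.218 CPM in any T-cell library.

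Among 16 immediate early and heat shock genes 4 were higher, against 10.9% of all tested genes. Nr4a1, an orphan nuclear receptor induced by antigen-receptor signaling, was at 4311, 5327, 3096 and 4943 CPM in the CD45+CD4-CD8- libraries, 736, 1760.2, 983 and 949 in the CD4+ libraries and 544, 951, 977 and 464 in the CD8+ libraries. All CD45+CD4-CD8- libraries were above all T-cell libraries for it, by 2.00 ± 0.35 against CD4+ T cells (adjusted p = 5.49e-04) and 2.59 ± 0.36 against CD8+ T cells (adjusted p = 7.65e-05). Egr3 (3.13 and 3.13), Atf3 (3.07 and 3.26) and Zfp36 (2.36 and 2.30) were the others. Egr1 was at 242, 210.0 and 210.0 CPM and was not called, and of the 16 genes none was lower than both groups, against 1 without the libraries numbered 4. In the cell cycle list 1 of 14 genes (7.14%, beside 8.33% of all tested genes) was lower than both groups, Tyms (−1.80 and −1.19), and 6 were lower than in CD4+ cells. Of the Hippo pathway, the route that restrains YAP, 1 of 11 tested genes was higher (9.09%, beside 10.9% of all tested genes, and 2 of 11 without the libraries numbered 4), the YAP partner Tead2 at 2.48, 0.806 and 0.921 CPM (1.62 and 1.42 on the log2 scale). Yap1 itself was at 1.85, 2.01, 1.44 and 2.47 CPM in the CD45+CD4-CD8- libraries, 2.04, 1.19, 1.22 and 1.96 in the CD4+ libraries and 2.45, 2.07, 2.09 and 2.28 in the CD8+ libraries. These levels overlapped, and no difference was called (0.27 ± 0.32 and −0.20 ± 0.31, adjusted p = 0.597 and 0.733). The call of Tead2 against CD4+ T cells was lost in DESeq2 with transcript length offsets (1.17, adjusted p = 0.114) and in edgeR with transcript length offsets (1.12, adjusted p = 0.163). The call of Tead2 against CD8+ T cells was lost in DESeq2 with transcript length offsets (0.94, adjusted p = 0.229) and in edgeR with transcript length offsets (0.91, adjusted p = 0.260).

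**Figure D3:**
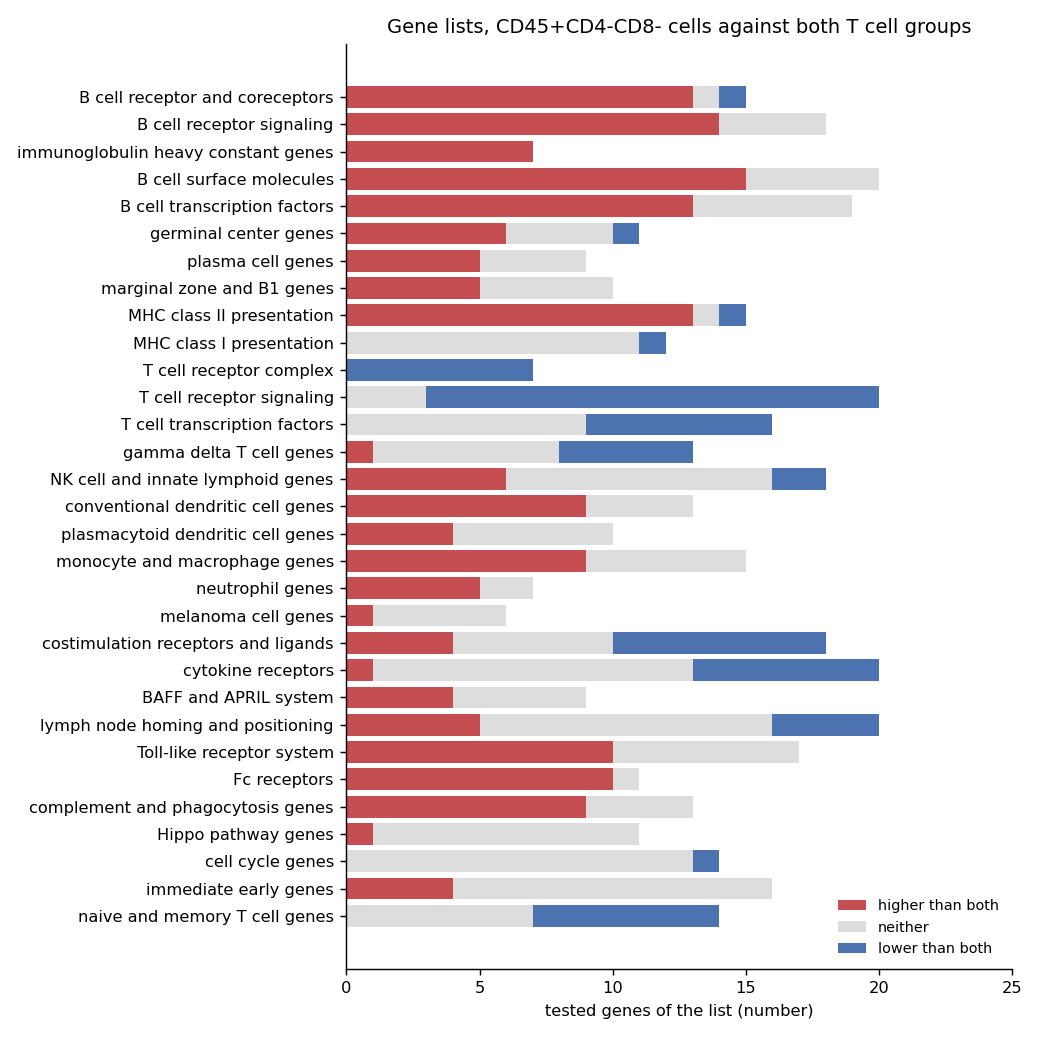
Number of tested genes per list (bars, lists with at least 5 tested genes) that were higher than both T-cell groups (red), lower than both (blue) or neither (gray). B-cell receptor, Fc receptor and MHC class II lists are almost wholly red, the T-cell receptor lists blue, and MHC class I, Hippo and cell cycle lists gray.

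By the size of the smaller of the 2 differences, among protein-coding genes with a mean of at least 20 CPM, most of the 12 genes leading the specific higher group are known from myeloid cells. S100a8 and S100a9 came with Trem1, Ccl6 (8.45 and 8.42), C5ar1, Cd14 and Tgfbi (8.06 and 7.36), and Cd180, Mef2c, Gm6377 and Ms4a1 were among the 12 leading genes too. The order rests in part on CD45+CD4-CD8- replicate 4: without it Tgfbi was at 4.87 and 4.18, while Mef2c was at 7.80 and 7.61. For Trem1, an amplifier of myeloid inflammation, with 3 counts in each T-cell group, the ratio of CPM was 509.8 (95% counting interval 174 to 2475) against CD4+ and 462 (158 to 2241) against CD8+ cells. For C5ar1, with 1 count in the CD8+ libraries, it was 1412 (253 to 55796) against those. Among protein-coding genes by level per length, the class II genes were followed by Ly6e (5610.4 TPM), H3f3a (4105 TPM), Cd79a (3363 TPM), Ly6d (2912 TPM), Nr4a1 (2583 TPM) and Cd83 (2500.4 TPM). Ly6e and H3f3a were called at small differences, 1.91 and 1.78 and 1.20 and 1.26. Of the 30 genes that lay between the T-cell groups, Ly6c2 was at 89.9, 32.7, 70.2 and 206 CPM against means of 8.55 in CD4+ and 1106 in CD8+ cells. St8sia6 and Lrrc32, a carrier of latent TGF-beta on regulatory T cells, lay below CD4+ and above CD8+ cells, at −2.74 and 2.91 and −4.28 and 2.01. The call of Lrrc32 against CD8+ T cells was lost in DESeq2 with transcript length offsets (1.53, adjusted p = 0.0729) and in edgeR with transcript length offsets (1.55, adjusted p = 0.146). Values that 1 library moved were, on the log2 scale, 10.23 for Ccl6 against CD4+ cells and 8.66 for Tgfbi against CD4+ cells without CD4+ replicate 4, 5.50 and 5.49 for Ccl6 without CD45+CD4-CD8- replicate 4 and 9.49 for Ccl6 against CD8+ cells and 3.74 for St8sia6 against CD8+ cells without CD8+ replicate 4.

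The spread among the 4 CD45+CD4-CD8- libraries was unequal between gene groups. Over 6852 protein-coding genes with a mean of at least 20 CPM, the highest library exceeded the lowest by a median of 1.85 times, and 222 genes by over 5 times. The highest was replicate 2 for 129 of these 222 and replicate 4 for 78. Arg1, the arginase of macrophages and suppressive myeloid cells, was at 0.327, 0.262, 0.566 and 391 CPM. Almost all of it was in replicate 4, and the sign against T cells turned without that library (6.53 and 7.30 with it, −1.41 and −0.63 without it). Thbs1 (39.8, 4.93, 71.2 and 1464 CPM), Ccl6 (30.9, 6.29, 29.5 and 629 CPM) and Tgfbi (27.0, 6.16, 19.9 and 605 CPM) were also highest there. Without replicate 4 the log2 fold changes of Ccl6 were 5.50 and 5.49 and those of Thbs1 3.85 and 4.22, all called. By contrast the summed B-cell receptor list was at 16087, 12400.0, 14687 and 13343 CPM, and the summed class II list at 102380.0, 45993, 85721 and 65602 CPM, with replicate 2 the lowest of the 4 in both. The call of Arg1 against CD4+ T cells was lost without CD4+ replicates 1, 2 or 3 or CD8+ replicate 1 (adjusted p = 0.0514 to 0.101), and also with scaling on total counts (6.33, adjusted p = 0.0513) and with the replicate block (3.63, adjusted p = 0.155). The call of Arg1 against CD8+ T cells was lost without CD8+ replicates 1, 2 or 3 (adjusted p = 0.0664 to 0.0757), and also with the replicate block (3.06, adjusted p = 0.243) and in a fit of the 8 libraries compared (7.30, adjusted p = 0.0520). Log2 fold changes that moved with 1 library were 8.63 for Arg1 against CD4+ cells without CD4+ replicate 4 and 7.89 for Arg1 against CD8+ cells without CD8+ replicate 4.

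**Figure D4:**
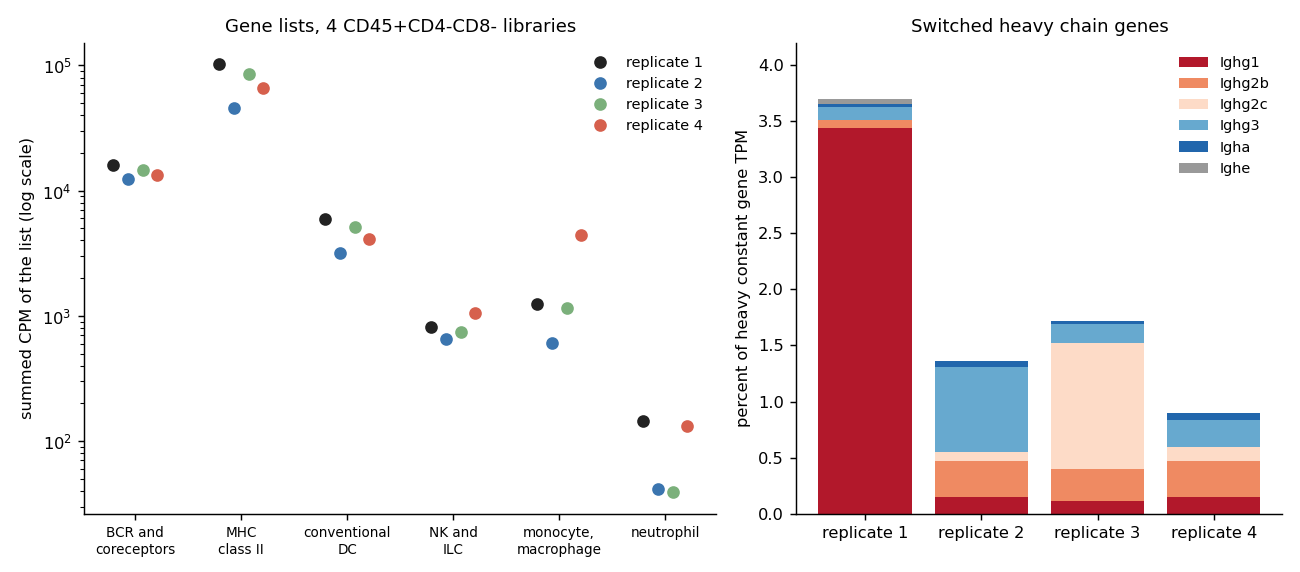
Left, the summed CPM of gene lists, on a logarithmic axis, in each of the 4 CD45+CD4-CD8- libraries (points, colored by replicate). The monocyte and macrophage sum is 4388 CPM in replicate 4 and at most 1248 in the others. The conventional dendritic cell (DC) sum includes Ccr7, which T cells also hold and which was not called. Its median is 4636 CPM here, beside 5425 in the CD4+ and 5644 in the CD8+ libraries. Right, stacked bars of each switched heavy chain gene as a percent of heavy constant gene TPM, led by Ighg1 in replicate 1 (3.44%) and Ighg2c in replicate 3 (1.12%).

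T-cell libraries held some RNA of the B-cell genes. Over 58 specific higher genes of the B-cell lists, the level in CD4+ libraries was a median of 0.913% of that in CD45+CD4-CD8- libraries (range 0.277% to 37.9%) and in CD8+ libraries 1.21% (0.526% to 42.5%). The genes at the top of these ranges, Inpp5d and Ptpn6, are ones T cells also use. CD4+ replicate 3 was the highest CD4+ library for Cd79a, Cd79b, Ighd and Pax5, and without it the log2 fold change of Ebf1 against CD4+ cells was 8.51 in place of 7.62. Over 24 specific lower genes of the T-cell lists, the level in CD45+CD4-CD8- libraries was a median of 1.37% of that in CD4+ and 1.97% of that in CD8+ libraries. Both sets hold only genes already called in these libraries, and list members that were not called were left out. That choice favors low shares.

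The same comparison in the TDLNs of Yap-cKO mice, whose 12 libraries the rule had not used, gave 1375 genes higher (9.69%) and 1301 lower (9.17%) than both T-cell groups among 14188 tested. Of the 1530 genes higher in WT, 1250 (81.7%) were called again in the same direction, and of the 1166 lower, 1033 (88.6%). These were 90.9% and 79.4% of the Yap-cKO calls, and 0 were called in the other direction. Of the WT-specific genes that passed the filter there, 1458 of 1459 and 1152 of 1152 kept their sign. The median of the mean log2 fold change was 3.50 in WT and 3.09 in Yap-cKO for the higher genes and −2.59 and −2.72 for the lower ones. Cd79a had 7.41 and 6.48 against CD4+ and CD8+ cells in Yap-cKO, Pax5 6.76 and 6.22, H2-Ab1 7.44 and 6.31, Cd3e −7.85 and −8.11 and Ncr1 7.44 and 7.11. All 14 specific genes of the receptor and coreceptor list and all 14 of the class II list were called again, as were 5 of 7 heavy constant genes and 6 of 9 monocyte and macrophage genes.

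A test of whether the difference between CD45+CD4-CD8- and T cells depended on genotype called 0 of 15024 genes in either direction (0% more positive and 0% more negative in Yap-cKO, edgeR, 365 at an unadjusted p under 0.05), and DESeq2 called 4. Lyz2 had the largest interaction of the genes named for this test, −2.15 ± 0.72 (adjusted p = 0.99996). Its mean in CD45+CD4-CD8- libraries was 1132 ± 1216 CPM in WT and 239.6 ± 95.04 in Yap-cKO. For Yap1 the interaction was −0.24 ± 0.46. Yap1 was at 1.76 ± 0.449, 2.00 ± 0.629 and 2.34 ± 1.99 CPM in CD45+CD4-CD8-, CD4+ and CD8+ cells of Yap-cKO TDLNs. In WT the values were 1.90 ± 0.485, 1.69 ± 0.553 and 2.19 ± 0.355. These levels overlapped, and the extent of the deletion was not tested. CPM in this paragraph are scaled by the total counts of each library, without TMM.

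The difference did depend on tissue. In WT mice, 1256 of 15934 genes (7.88%) had a more positive and 1927 (12.1%) a more negative difference between CD45+CD4-CD8- and T cells in the tumor-infiltrating cells (TILs) than in TDLNs. Of the 1530 genes higher in the node, 552 were called more negative and 52 more positive in TILs, and of the 1166 lower genes 430 were called more positive and 10 more negative. The TDLN libraries that chose these genes also entered the interaction, which favors this split. CPM in this paragraph are scaled by the total counts of each library, without TMM. Cd79a went from 3244 ± 553 CPM in the node to 428 ± 127 in TILs, while Lyz2 went from 1132 ± 1216 to 18456 ± 2581 (CD45+CD4-CD8- libraries). In the T-cell libraries Cd79a went from 15.9 ± 10.9 to 3.09 ± 1.26 CPM (CD4+) and from 25.6 ± 9.14 to 6.66 ± 2.49 CPM (CD8+), and Lyz2 from 6.76 ± 0.918 to 338 ± 175 and from 13.1 ± 8.50 to 352 ± 148. The interactions themselves were −0.35 for Cd79a and −0.73 for Lyz2 and were not called (adjusted p = 0.691 and 0.533). Of 14 genes named for this test, Yap1 was the one called, at −2.34 ± 0.36 (adjusted p = 6.29e-05). In TDLNs it was at 1.90 ± 0.485, 1.69 ± 0.553 and 2.19 ± 0.355 CPM in CD45+CD4-CD8-, CD4+ and CD8+ cells, and in TILs at 3.47 ± 0.844, 23.6 ± 5.50 and 23.9 ± 7.68 CPM. In the same test 8 of 8 melanoma genes and 6 of 9 stromal and endothelial genes were called more negative, beside 12.1% of all genes. Whether RNA of tumor or stromal cells contributed to the Yap1 values of the T-cell libraries was not tested.

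**Figure D5:**
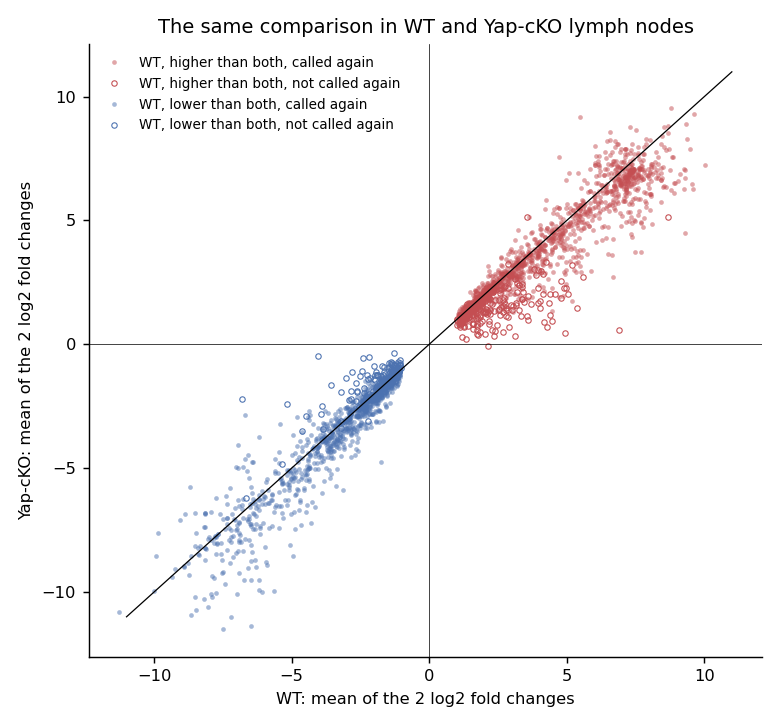
For genes specific in WT TDLNs and tested in Yap-cKO TDLNs, the mean of the log2 fold changes against CD4+ and CD8+ T cells in WT (x axis) and Yap-cKO (y axis), with the line of equality. Filled points were called again, and 1458 of 1459 higher (red) and 1152 of 1152 lower genes (blue) kept their sign.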

How the data were processed

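RNA of sorted cells was amplified with SMART-Seq v4 and sequenced on a HiSeq 4000. Per the submitters' processing notes, FastQC, Trimmomatic and Salmon 0.9.1 were used with the mm10 build, and the deposited files hold, for each library, an expected count, a TPM and an effective length for every transcript. The authors deposited no gene-level values here. SMART-Seq libraries do not mark strand, so overlapping genes on opposite strands cannot be told apart. Transcripts were assigned to GENCODE M21 genes (111787 of 112092 matched, 34932 genes), the expected counts were summed per gene and rounded, and between 0.0488% and 0.170% of counts in a library had no gene and were left out of library sizes. TPM were summed per gene and used for shares and for comparisons between genes alone. The effective length entered the alternatives with length offsets.

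The 12 WT TDLN libraries (15918058 to 24213689 counts) were fitted together in edgeR 4.0.16 (R 4.3.3) with TMM, with a filter that required 10 counts in 4 libraries, and tested with the quasi-likelihood test and Benjamini-Hochberg adjustment. Genes were called at an adjusted p under 0.05 where the log2 fold change was also beyond 1 in size. The study's own gene-level tests used DESeq2, which was run here as an alternative (DESeq2 1.42.0). The 12 Yap-cKO TDLN libraries were fitted in the same way, and interactions with genotype and with tissue were fitted over 24 libraries each. Libraries of Yap-cKO tumors were not used here. Genes whose libraries held 1 to 3 counts are given as ratios with an exact 95% interval, and intervals cover counting error only.

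The compared groups, the gene lists and the tests were chosen with earlier results of these data known. Named genes were list members, the 12 higher and 12 lower genes with the largest smaller difference at a mean of at least 20 CPM, the 10 highest by TPM, up to 6 of opposite direction, the 8 with the widest spread among CD45+CD4-CD8- libraries, 14 genes for the interactions and the 5 leading Ighv and Igkv segments. Alternatives were DESeq2, scaling without TMM, length offsets, no count filter, antigen-receptor segments left out, separate fits, no fold threshold, a replicate block and each library left out. The omission of the 3 libraries numbered 4 was chosen after seeing the data. The fits were tested on simulated counts. No 2 libraries of a group held identical values. Promoter windows are RefSeq's (GRCm38.p6).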

Additional observations from a re-analysis of the deposited data

Results flagged for a closer look

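Dixon's ratio, the gap of the highest or the lowest library to its nearest neighbor over the range of its group, exceeded its 95% critical value in 57 of 500 groups of 4 libraries. Chance gives such a gap in about 5% of groups, but the 2 shares cannot be set against each other: the genes tested are those given in the text, some of them chosen for a wide spread among the CD45+CD4-CD8- libraries, groups of the same libraries recur, and some groups hold a single count. CD45+CD4-CD8- replicate 1 was the highest for Cxcr5 (1089 CPM against 872 to 890.0) and Ighg1 (221 CPM against 10.3 to 11.1). CD45+CD4-CD8- replicate 2 was the highest for Mef2c (1005 CPM against 387 to 463), Ptprc (1375 CPM against 241 to 424) and St8sia6 (24.1 CPM against 9.15 to 10.2). CD45+CD4-CD8- replicate 3 was the highest for Foxp3 (1.83 CPM against 0.272 to 0.524). CD45+CD4-CD8- replicate 4 was the highest for Arg1 (391 CPM against 0.262 to 0.566), C5ar1 (78.0 CPM against 1.09 to 12.04), Ccl22 (47.2 CPM against 2.18 to 9.19), Ccl6 (629 CPM against 6.29 to 30.9), Cxcr3 (9.24 CPM against 5.01 to 5.55), Fcer1g (232 CPM against 30.3 to 63.3), Tgfbi (605 CPM against 6.16 to 27.0), Thbs1 (1464 CPM against 4.93 to 71.2) and Trem1 (56.9 CPM against 5.15 to 13.9). CD45+CD4-CD8- replicate 2 was the lowest for Tcf7 (19 CPM against 24.9 to 25.8) and Xbp1 (166 CPM against 258 to 264). The summed monocyte and macrophage list was also highest in CD45+CD4-CD8- replicate 4 (4388 CPM against 608 to 1248).

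CD4+ replicate 2 was the highest for Cd5 (789 CPM against 419 to 456), H2-Oa (19.3 CPM against 10.6 to 11.7), Il27ra (512 CPM against 294 to 323), Il2rb (459 CPM against 286 to 306), Ly6e (1368 CPM against 776 to 867) and Tlr9 (0.0917 CPM against 0). CD4+ replicate 3 was the highest for Cd79b (14.3 CPM against 5.41 to 6.79), H2-Eb2 (0.954 CPM against 0.109 to 0.138), Ighd (19.7 CPM against 7.98 to 9.94) and Tnfrsf13c (4.35 CPM against 1.47 to 1.88). CD4+ replicate 4 was the highest for Arg1 (3.54 CPM against 0.183 to 0.276), Fas (35.5 CPM against 19.2 to 20.7), Ptprc (2129 CPM against 469 to 711) and S100a8 (0.0544 CPM against 0). CD4+ replicate 3 was the lowest for Cd209a (0.0530 CPM against 1.79 to 1.93). CD4+ replicate 4 was the lowest for Cd81 (37.9 CPM against 80.2 to 86.8), Il10ra (30.3 CPM against 46.0 to 47.5) and Lyz2 (4.68 CPM against 6.96 to 7.34). CD8+ replicate 1 was the highest for Ighg1 (3.90 CPM against 0.0493 to 0.487). CD8+ replicate 2 was the highest for Fcer1g (4.83 CPM against 2.15 to 2.33), Gzma (8.82 CPM against 1.86 to 2.78) and Icosl (11.8 CPM against 6.29 to 6.83). CD8+ replicate 3 was the highest for Lrrc32 (2.85 CPM against 0.838 to 1.11), Pou2af1 (20.8 CPM against 17.0 to 17.6) and Sirpa (0.695 CPM against 0.111 to 0.197). CD8+ replicate 4 was the highest for C5ar1 (0.0555 CPM against 0), Il7r (519.9 CPM against 79.1 to 126), Prkcb (203 CPM against 93.8 to 112), Ptprc (2310.0 CPM against 255 to 382), Thbs1 (7.38 CPM against 0.0493 to 0.556) and Themis (266 CPM against 28.4 to 40.7). CD8+ replicate 1 was the lowest for Cd180 (0.117 CPM against 0.389 to 0.417). CD8+ replicate 3 was the lowest for Foxo1 (294 CPM against 332 to 337). Several of these T-cell values stand for 1 to 3 counts.

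Among shares of immunoglobulin TPM in the CD45+CD4-CD8- libraries, Ighe was highest in replicate 1 (0.0397% against 0% to 0.00342%), Ighg1 was highest in replicate 1 (3.44% against 0.112% to 0.153%), Ighg2b was lowest in replicate 1 (0.0739% against 0.289% to 0.320%), Ighg2c was highest in replicate 3 (1.12% against 0.00487% to 0.124%), Ighm was lowest in replicate 2 (61.6% against 66.95% to 67.7%) and Igkv19-93 was lowest in replicate 4 (3.72% against 4.67% to 4.86%).

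The difference of CD45+CD4-CD8- from T cells differed between tissues for Yap1, with an interaction of −2.34 ± 0.36 on the log2 scale (TILs minus TDLNs in WT, adjusted p = 6.29e-05 in edgeR's test over all genes). In that test 8 of 8 melanoma genes were called in the same direction, and the cause was not tested.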

How the results depend on the processing

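The 4 counts of the WT comparison (3379 and 3409 genes called against CD4+ and CD8+ T cells, 1530 specific higher and 1166 specific lower) stayed within 1.5 times in each alternative that was run. The higher genes ranged from 1304 without antigen-receptor segments to 1725 without a count filter, and the lower genes from 987 without antigen-receptor segments to 1454 with no fold threshold. Leaving out 1 library at a time gave 2680 to 3437 genes against CD4+ cells, 2744 to 3643 against CD8+ cells, 1046 to 1501 specific higher and 1047 to 1152 specific lower. Removing a CD45+CD4-CD8- library also lowered the number of genes tested by construction, because a gene needed 10 counts in 4 libraries. Without the 3 libraries numbered 4, 1891 genes were called again in Yap-cKO, and 0 genotype and 3448 tissue interactions were called. The Yap-cKO repeat gave 1894 to 2287 genes called again, and the tissue interaction 2734 to 3301. The genotype interaction moved from 0 to 4 genes with DESeq2 and gave 0 to 1 genes when libraries were left out 1 at a time, 1 of them without CD8+ replicate 2 of the Yap-cKO group. The cause was not tested. Scaling on total counts without TMM moved the median log2 fold change of all genes against CD4+ cells to −0.101. The largest change in the share of higher genes among those called against CD4+ cells was from 54.1% to 46.8%, without CD45+CD4-CD8- replicate 4.

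Over 312 fold changes of named genes, the alternatives gave 6367 values with the same direction and side of the threshold, 72 that lost the call, 11 that gained it and 13 that changed sign. The sign changes of called values were those of Arg1, which ranged from −1.41 to 8.63 against CD4+ cells and from −0.63 to 7.89 against CD8+ cells as libraries were left out, with the lowest values without CD45+CD4-CD8- replicate 4. The other sign changes were of values that had not been called. Over the omissions of 1 library or of the 3 numbered 4, Ptprc ranged from −1.46 to 0.35 against CD4+ and from −1.25 to 1.14 against CD8+ cells (0.10 with the replicate block), Cd9 from −0.43 to 0.075 against CD8+ cells, and Cd80 from −0.0070 to 0.80, Myd88 from −0.52 to 0.048 and Xbp1 from −0.29 to 0.057 against CD4+ cells. The causes were not tested.

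Same-numbered CD45+CD4-CD8- and T-cell libraries did not deviate together throughout, with correlations of 0.225, −0.475, 0.290 and −0.0771 with CD4+ libraries and of 0.300, −0.241, 0.123 and −0.232 with CD8+ libraries. Same-numbered CD4+ and CD8+ libraries did (0.526, 0.664, 0.411 and 0.818). They were not compared with each other, so the pairing of the gates compared was left as an alternative. The interactions used the mean of both T-cell groups with libraries taken as independent, and there this correlation was left out of the main fits. The replicate block gave 3441, 3409, 1559 and 1162 for the 4 counts, 2295 genes called again in Yap-cKO, 0 genotype and 3364 tissue interactions. It ended the calls of Arg1 against both T-cell groups, of Itgal against CD4+ and of Rfxap against CD8+ cells and added those of Cd80 and Cd40lg against CD8+ cells. Depth limits values under 0.188 CPM, which T-cell libraries often held for B-cell and myeloid genes.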

Other observations

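Bhlhe41, a basic helix-loop-helix repressor, was chosen after its values were seen. It ranged from 2771 to 4057 CPM in the CD45+CD4-CD8- libraries, from 2703 to 3519 CPM in the CD4+ libraries and from 2627 to 5463 CPM in the CD8+ libraries. The groups overlapped and no difference was called (log2 fold changes of 0.11 and −0.24).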
